A study of Cucumis sativus with 6 samples.

Results

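Stalk phloem was compared with fruit phloem in young cucumber fruits of inbred line 9930, harvested 3 days after anthesis (flower opening). The comparison was defined by organ label, with earlier results of these data known. It took in 2 stalk libraries and 2 fruit libraries out of the 6 in the series. The other 2 libraries came from the pedicle, were not fitted, and are given only as levels beside the results. All groups share the inbred line, the age, growth in a chamber and then in a greenhouse, and laser microdissection, in which chosen cells are cut out of thin sections of fixed tissue with a laser. The labels give no treatment or genotype difference and do not say where the stalk ends and the fruit begins. The study's design text describes the 2 libraries of an organ as biological replicates, and how many plants or fruits went into each is not given in the labels. Of the 15720 genes in the authors' table, 15050 had at least 10 TPTM in at least 2 of the 4 stalk and fruit libraries and were tested. TPTM is the authors' expression score, scaled to a total of about 10000000 per library and rounded to whole numbers.

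Phloem is the tissue that moves sugars, amino acids, proteins and RNA from leaves to growing organs. Its conducting cells, the sieve elements, have lost their nuclei and depend on neighbouring companion cells for most of their transcripts. In cucumber and other cucurbits the transported sugars include raffinose and stachyose beside sucrose. A young fruit is a strong sink, where the phloem unloads, whereas phloem of the organs that bear it mainly conducts. The deposited table names genes by locus identifier, and 0 of 15720 identifiers occurred in the RefSeq table of 23999 cucumber genes used here. Gene products, phloem markers and markers of other cell types could therefore not be read, so the labelled tissue was not checked against markers, and no function is given for any gene below. In dissected tissue, fewer cells of a type and less RNA per cell cannot be told apart.

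Stalk and fruit phloem had similar expression profiles. The log2 scores correlated across genes at 0.981 between the stalk libraries, at 0.923 to 0.938 between a stalk and a fruit library, and at 0.955 between the fruit libraries. The median score over the table stood at 140 and 131 TPTM for stalk, against 143 and 158 TPTM for fruit. Genes listed at 0 numbered 89 and 103 in stalk, against 159 and 161 in fruit. The labels name no batch, day or plant for any library.

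A minority of genes differed between the organs, in both directions. With these 2 organs alone in the fit, 1000 of 15050 tested genes were called, which is 6.64% (limma on log2(TPTM + 5), Benjamini-Hochberg adjusted p under 0.05 over all tested genes). Of these, 453 genes (3.01% of those tested) were higher in stalk and 547 (3.63%) were lower. The genes higher in stalk had a median log2 difference of 1.55 from fruit, and the genes lower in stalk one of -1.44, beside a median of -0.12 over all tested genes. Differences of at least 2-fold were found in 435 of the genes higher in stalk and 527 of those lower. At least 4-fold differences were found in 112 and 105 genes, and at least 10-fold ones in 14 and 14. A difference of at least 30-fold was reached by 4 genes higher in stalk and by 0 lower. The narrowest difference that passed measured 0.89 (log2) for genes higher in stalk and 0.87 in size for genes lower, so changes under about 2-fold were mostly below what 2 libraries per organ could call. Without adjustment, 3790 genes (25.2%) had a limma p under 0.05.

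The balance of directions changed with the scaling, and also without the filter or with pedicle in the fit. With TMM factors, which equalise the libraries on the bulk of their genes, 563 genes were higher in stalk and 409 lower, and with quantile normalisation 498 were higher and 385 lower. Either setting shifted the median log2 difference over all tested genes upward by 0.11, to -0.01. After rescaling without the genes of highest score, 487 genes were higher in stalk and 608 lower. On the scores as deposited, 287 were higher and 220 lower with all 6 libraries in the fit, and 211 and 190 without a filter. Other pseudocounts, filters and priors left more genes lower in stalk than higher. The count itself rested on having all 4 libraries. Without any 1 of them, 0 genes passed the adjusted threshold in limma, while an unadjusted p under 0.05 was reached by 1639 genes without stalk replicate 1, 1570 without stalk replicate 2, 4195 without fruit replicate 1 and 3007 without fruit replicate 2. Such a fit keeps 1 residual degree of freedom and assumes that the lone library varies like the other organ's. These 4 fits reuse the libraries on which the called genes were chosen. They therefore cannot test whether those calls would hold in other libraries.

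**Figure D1:**
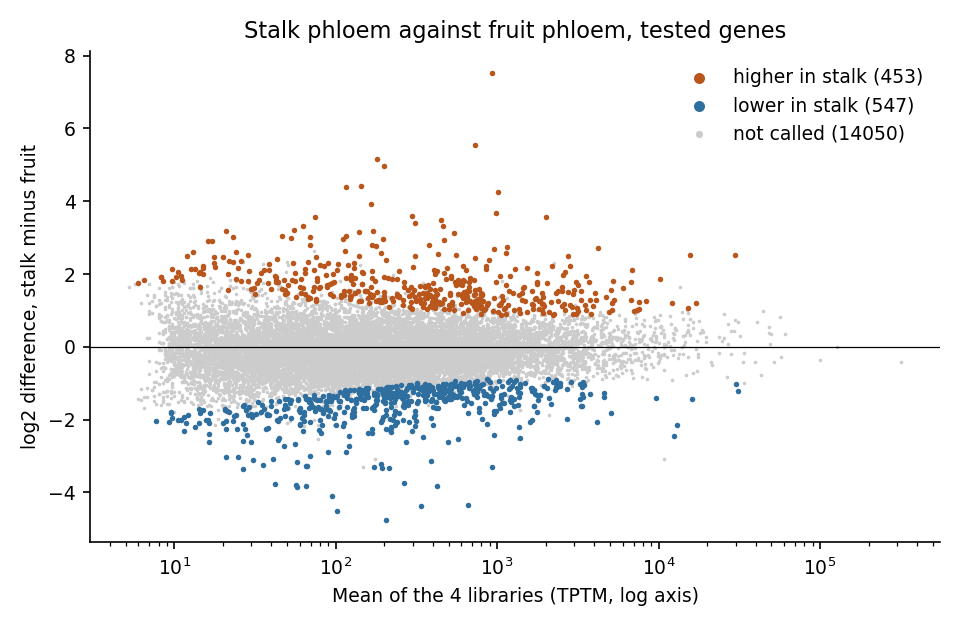
Log2 difference (stalk minus fruit, on the log2(TPTM + 5) scale) of each of the 15050 tested genes, against its mean over the 4 libraries in TPTM on a log axis. The 453 genes called higher in stalk lie above 0 and the 547 called lower lie below it, and one gene stands clear of all others at 7.52.

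The gene with the widest gap between the organs was Csa6G367090. It had 1532 and 2170 TPTM in the stalk libraries, against 6 and 4 TPTM in the fruit libraries. The lower stalk library was thus 139.7 times the higher fruit library after adding the pseudocount of 5. That the organs did not overlap follows from naming genes by this gap, and it held in 54.7% of all tested genes. The log2 difference of Csa6G367090 was 7.52 ± 0.31 (SE, n = 2 libraries each, limma adjusted p = 1.05e-05). Every SE given for a named gene comes from limma's moderated variance, which draws on all tested genes. It is therefore not the spread of that gene's own libraries. In the pedicle libraries Csa6G367090 stood at 5605 and 3328 TPTM, above both stalk libraries, so low scores were seen in fruit and not in either other organ.

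Csa3G104900 showed the next widest gap toward stalk and the closest replicates of the genes named here. It had 228 and 222 TPTM in the stalk libraries, against 6 TPTM in each fruit library. After adding the pseudocount of 5, the lower stalk library was 20.6 times the higher fruit library, and the log2 difference was 4.39 ± 0.34 (SE, n = 2 each; limma adjusted p = 0.0010). Unlike Csa6G367090, Csa3G104900 was lower in pedicle than in stalk libraries by score, at 54 and 39 TPTM. By fold change alone it ranked sixth among the genes higher in stalk, since the rank used here rests on the gap and not on the mean.

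Toward fruit, the widest gap was that of Csa6G490780. It had 7 and 5 TPTM in the stalk libraries, against 190 and 178 TPTM in the fruit libraries. After adding the pseudocount of 5, both fruit libraries were at least 15.2 times both stalk libraries, with a log2 difference of -4.11 ± 0.35 (SE, n = 2 each; limma adjusted p = 0.0010). In pedicle, Csa6G490780 had 2 and 19 TPTM, near the stalk scores, so fruit was the one organ of the series in which it passed 100 TPTM. With all 6 libraries in the fit, its call was lost when any 1 stalk or fruit library was left out (limma adjusted p = 0.061 to 0.14).

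Csa7G394080 followed, with 38 and 75 TPTM in the stalk libraries against 840 and 1699 TPTM in the fruit libraries. Its replicates differed about 2-fold in each organ, yet the lower fruit library was still 10.6 times the higher stalk library after adding the pseudocount of 5. The log2 difference of Csa7G394080 was -4.35 ± 0.40 (SE, n = 2 each; limma adjusted p = 0.0014). Here the pedicle libraries, at 2623 and 2023 TPTM, lay above those of fruit, so that stalk had the lowest scores of the series.

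**Figure D2:**
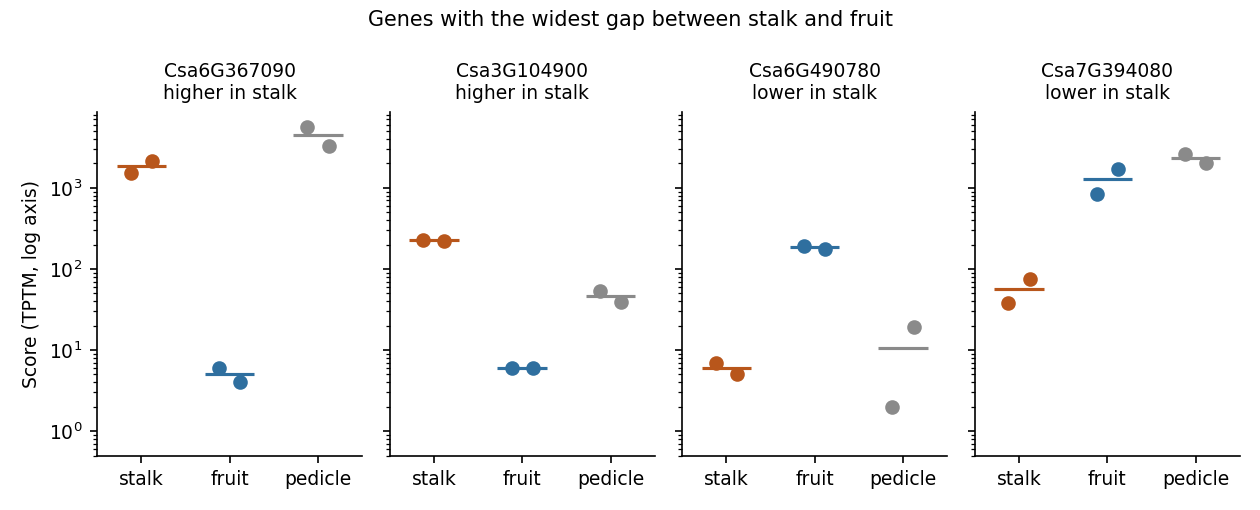
Scores of the 4 named genes in each library, in TPTM on a log axis, for stalk, fruit and pedicle; points are libraries and lines are the means of 2 libraries. The 4 genes were chosen by the gap between stalk and fruit, so these organs lie apart in each of them by selection. Pedicle lies above both for Csa6G367090 and Csa7G394080 and between them for Csa3G104900. For Csa6G490780 pedicle lies at 2 and 19 TPTM, around the stalk scores.

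Gaps as wide as these were rare. The stalk and fruit libraries did not overlap in 8236 tested genes, 54.7% of them. Of the tested genes, 3220 (21.4%) were higher in every stalk library and 5016 (33.3%) lower. With 2 libraries a side, many genes separate in this way without any organ difference. These counts also use the scores as deposited, where the median log2 difference over all tested genes was -0.12, against -0.01 with TMM factors. A gap of at least 2-fold between the nearest libraries of the 2 organs, on scores with the pseudocount of 5 added, was found in 364 genes with stalk above fruit, of which 311 were called, and in 419 genes with fruit above stalk, of which 347 were called. A gap of at least 4-fold was found in 51 genes with stalk above and 32 with fruit above, and all of these genes were called. A gap of at least 10-fold was found in 7 genes with stalk above and 3 with fruit above.

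Large mean differences that were not called went with fruit libraries far apart. Of the 240 tested genes (1.59%) with at least a 4-fold difference, 217 were called and 23 were not. The 23 genes had a median standard deviation between replicates of 0.38 in stalk and 1.83 in fruit on the log2 scale, and in 21 of them the fruit libraries were the more spread. Among the 217 called genes, the medians were 0.26 in stalk and 0.41 in fruit, and the fruit libraries were the more spread in 138. A difference of this size misses the call mainly when replicates lie far apart, so a wide spread among the 23 follows from the test. Of the 23 genes, 8 were higher and 15 lower in stalk by their means.

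The spread between replicates was wider in fruit in each of the 4 bands of expression. The root mean square standard deviation over all tested genes was 0.31 in stalk and 0.47 in fruit on the log2 scale. For genes with a mean under 50 TPTM it was 0.36 in stalk and 0.60 in fruit, and for genes between 500 and 5000 TPTM it was 0.26 and 0.33. Above 5000 TPTM it stayed at 0.27 in stalk and reached 0.59 in fruit. There fruit was the more spread in 165 of 285 genes and stalk in 120, against 2298 and 1188 under 50 TPTM. A root mean square gives most weight to the genes furthest apart, so 0.59 does not describe the typical gene of that band. The fruit libraries were further apart than the stalk libraries in 9156 genes and closer in 5877. The counting error behind low scores could be estimated for 3 of the 4 libraries. A score of 10 TPTM stood for about 24.2 reads in stalk replicate 1, 27.6 in stalk replicate 2 and 21.8 in fruit replicate 2. This gives a counting error of 20.3%, 19.0% and 21.4%. The estimate for stalk replicate 2 was the least certain of the 3. Its log likelihood exceeded that of any other depth by 3.75, against 18.43 for stalk replicate 1 and 18.09 for fruit replicate 2. The read depth of fruit replicate 1 could not be estimated, and reads of amplified RNA are not independent molecules.

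Called genes were found at all levels of expression. In the band below 50 TPTM the test called 65 genes higher in stalk and 77 lower, together 4.06% of 3499. Between 50 and 500 TPTM, 194 genes were higher and 305 lower, 6.21% of 8031. Between 500 and 5000 TPTM, 174 genes were higher and 158 lower, 10.3% of 3235. Above 5000 TPTM, 20 genes were higher in stalk and 7 lower, 9.47% of 285. This last band leaned toward stalk under every scaling tried, with 20 and 5 genes by TMM factors, 15 and 10 by quantile normalisation, and 21 and 7 after rescaling without the genes of highest score. With these 2 organs in the fit, the 2 lowest bands leaned toward fruit as deposited and toward stalk with TMM factors and with quantile normalisation. Below 50 TPTM, 73 genes were higher in stalk and 57 lower with TMM factors, and 63 and 56 with quantile normalisation. Between 50 and 500 TPTM, 260 were higher in stalk and 232 lower with TMM factors, and 251 and 187 with quantile normalisation. Rescaling without the genes of highest score left both bands leaning toward fruit, at 71 and 80, and at 211 and 345. With all 6 libraries in the fit and the scores as deposited, both leaned toward stalk, at 25 and 21, and at 109 and 102. The narrowest difference that passed was 1.44 (log2) in the band under 50 TPTM and 0.87 between 500 and 5000 TPTM, so the bands differ in what could be called.

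**Figure D3:**
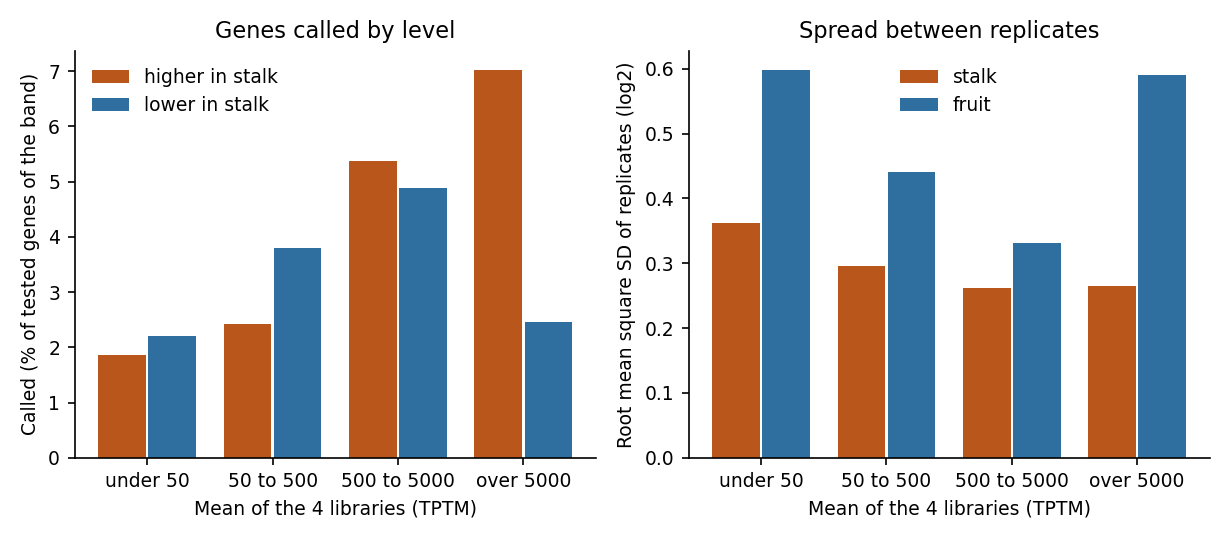
Left, percent of tested genes called higher (3.01% over all) and lower (3.63% over all) in stalk, by mean over the 4 libraries in TPTM. Right, root mean square standard deviation between the 2 libraries of stalk and of fruit in the same bands, on the log2 scale, where the fruit bar exceeds the stalk bar in each band and reaches 0.59 above 5000 TPTM.

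The 10 genes with the highest scores of either organ did not pass the test. No correction of the scores for gene length is recorded, so these ranks are read as ranks of scores and not of transcript numbers. The 10 genes with the highest stalk means took 8.64% and 9.53% of all stalk expression, against 9.65% and 8.68% of all fruit expression. Their log2 differences ran from -0.40 to 0.97, and 0 of the 10 were called (limma; 6.64% of all tested genes were called). The 10 genes with the highest fruit means took 7.20% and 8.67% of stalk expression against 10.1% and 9.34% of fruit expression. Their log2 differences ran from -0.99 to 0.36, and again 0 were called by limma. The top 10 of stalk and of fruit had 5 genes in common, and their top 100 lists had 77 in common. Of the 100 genes with the highest stalk means, 6 were called higher and 2 lower in stalk, and of the 100 with the highest fruit means, 1 was called higher and 6 lower in stalk, beside 3.01% called higher and 3.63% called lower over all tested genes. Ranking by the mean of an organ favours genes that are high in it, so nothing is read from these directions.

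The share of each library's total taken by the called genes is given as a description, since the genes were chosen on these stalk and fruit libraries. By number, the genes higher in stalk were 3.01% of those tested and the genes lower 3.63%. The 453 genes higher in stalk took 7.17% and 7.47% of the total in the stalk libraries, against 2.82% and 2.36% in the fruit libraries. The 547 genes lower in stalk took 2.08% and 2.25% in the stalk libraries, against 5.38% and 6.01% in the fruit libraries. The shifts were concentrated in a part of each list. For the genes higher in stalk, 20 genes accounted for 40.1% of the summed difference in TPTM and 34 for 50% of it. For the genes lower in stalk, 20 genes accounted for 42.7% and 34 for 50%. The 20 genes higher in stalk with a mean over 5000 TPTM alone took 2.68% and 2.99% of the stalk libraries, against 1.08% and 0.86% of the fruit libraries.

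The pedicle libraries, which had no part in the choice of genes, lay differently for each list. The genes higher in stalk took 5.52% and 5.73% of the pedicle libraries, between their shares in stalk and in fruit. The genes lower in stalk took 2.71% and 1.97% of the pedicle libraries, around their shares in stalk. By median log2 score, the genes higher in stalk stood at 9.15 and 9.02 in stalk, 7.61 and 7.38 in fruit, and 8.43 and 8.61 in pedicle. The genes lower in stalk stood at 6.98 in each stalk library, 8.44 and 8.55 in fruit, and 7.10 and 6.78 in pedicle. Of the 453 genes higher in stalk, the pedicle mean lay above both other organs in 160, between them in 188 and below both in 105. Of the 547 genes lower in stalk, it lay above both in 20, between them in 267 and below both in 260. Over all tested genes the pedicle mean lay above both in 31.1%, between them in 24.9% and below both in 44.0%. These positions use the same stalk and fruit libraries that chose the genes, and carry no test.

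**Figure D4:**
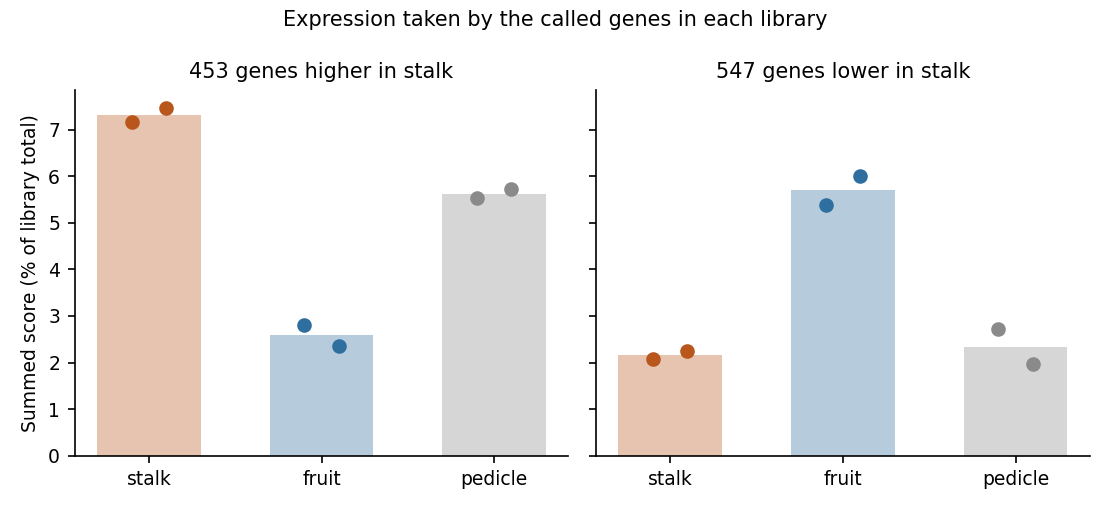
Summed score of the 453 genes called higher and the 547 called lower in stalk, as percent of each library's total, in stalk, fruit and pedicle; points are libraries and bars are means of 2 libraries. Pedicle lies between stalk and fruit for the genes higher in stalk (5.52% and 5.73%) and around stalk for the genes lower in stalk (2.71% and 1.97%).

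Few called genes were switched fully between the organs. Of the 453 genes higher in stalk, 7 were at 0 in both libraries of fruit, with stalk means of 12 to 42 TPTM. Of the 547 genes lower in stalk, 5 were at 0 in both libraries of stalk, with fruit means of 15.5 to 131 TPTM. At most 10 TPTM in both libraries of the lower organ was found in 43 genes higher in stalk and 54 lower. Pedicle also had at most 10 TPTM in both of its libraries in 12 of these 43 genes and in 38 of these 54. No matching share over all tested genes is given, so these low counts are not read as a trait of either list. Among the genes higher in stalk, 258 (57.0%) had at least 100 TPTM in both fruit libraries. Of those lower, 285 (52.1%) had at least 100 TPTM in both stalk libraries. These genes thus differed in level between organs that each expressed them. Over all tested genes the median score was 148 TPTM in stalk and 166.5 TPTM in fruit, so such levels were common and are not read as a trait of the called genes. Under 50 TPTM the narrowest difference that passed was 1.44 (log2), which also limits how many low genes could be called.

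By the convention of these locus identifiers, the digit after Csa numbers the chromosome and the digits at the end run along it, and no coordinate was used. Called genes were spread over all of these groups, from 4.97% of the genes tested in group 4 to 7.75% in group 2, beside 6.64% overall. Some genes called in the same direction stood side by side in identifier order. Among 451 placed genes higher in stalk, 52 (11.5%) had the next or previous tested identifier called higher too, where 5.87% of all 14982 placed tested genes had such a neighbour. Among 545 placed genes lower in stalk, 82 (15.05%) had a neighbour called lower, against 7.02% of all placed tested genes. A neighbour called in the opposite direction was found for 24 (5.32%) and 24 (4.40%) of them.

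There were 6 runs of 3 or more neighbouring identifiers called higher in stalk and 2 called lower. The longest had 5 genes in each direction, both in group 6. Neighbouring means next to each other among tested genes, not adjacent on the chromosome. The serial numbers spanned 2040 in the longest run lower in stalk and 1030 in the longest run higher. The 5 genes of the run lower in stalk had 7 to 95 TPTM in the stalk libraries against 80 to 437 TPTM in the fruit libraries, with log2 differences of -3.34 to -2.00 and 30 to 251 TPTM in pedicle. The 5 genes of the run higher in stalk had 43 to 1726 TPTM in stalk against 5 to 754 TPTM in fruit, with log2 differences of 1.38 to 2.25 and 96 to 628 TPTM in pedicle. A run of 3 genes in group 4, with a serial span of 20, was higher in stalk by 2.02 to 2.94 on the log2 scale. It had 31 to 922 TPTM in stalk against 1 to 128 TPTM in fruit. These runs were chosen after their values were seen. How the authors counted reads that match near-identical neighbouring copies is not given in the sources used here, and its part in these runs was not tested.

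Fewer genes were called with pedicle in the fit. With all 6 libraries in the fit, so that the pedicle libraries entered the estimate of spread, 507 genes were called, of which 287 were higher and 220 lower in stalk, and all 507 were among the 1000. Leaving out 1 library from that fit gave 25 genes without stalk replicate 1, 24 without stalk replicate 2, 166 without fruit replicate 1 and 78 without fruit replicate 2. Called in all of these 4 fits and as reported were 12 genes higher in stalk and 3 lower, Csa6G367090, Csa3G104900 and Csa7G394080 among them. Their differences were at least 2.22 on the log2 scale for genes higher in stalk and 3.13 in size for genes lower. Such fits have fewer degrees of freedom, so narrow differences are harder to call in them. The leave-one-out fits were added after seeing the data and reuse the libraries on which the genes were called and named. They cannot test whether these calls would hold in other libraries.

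**Figure D5:**
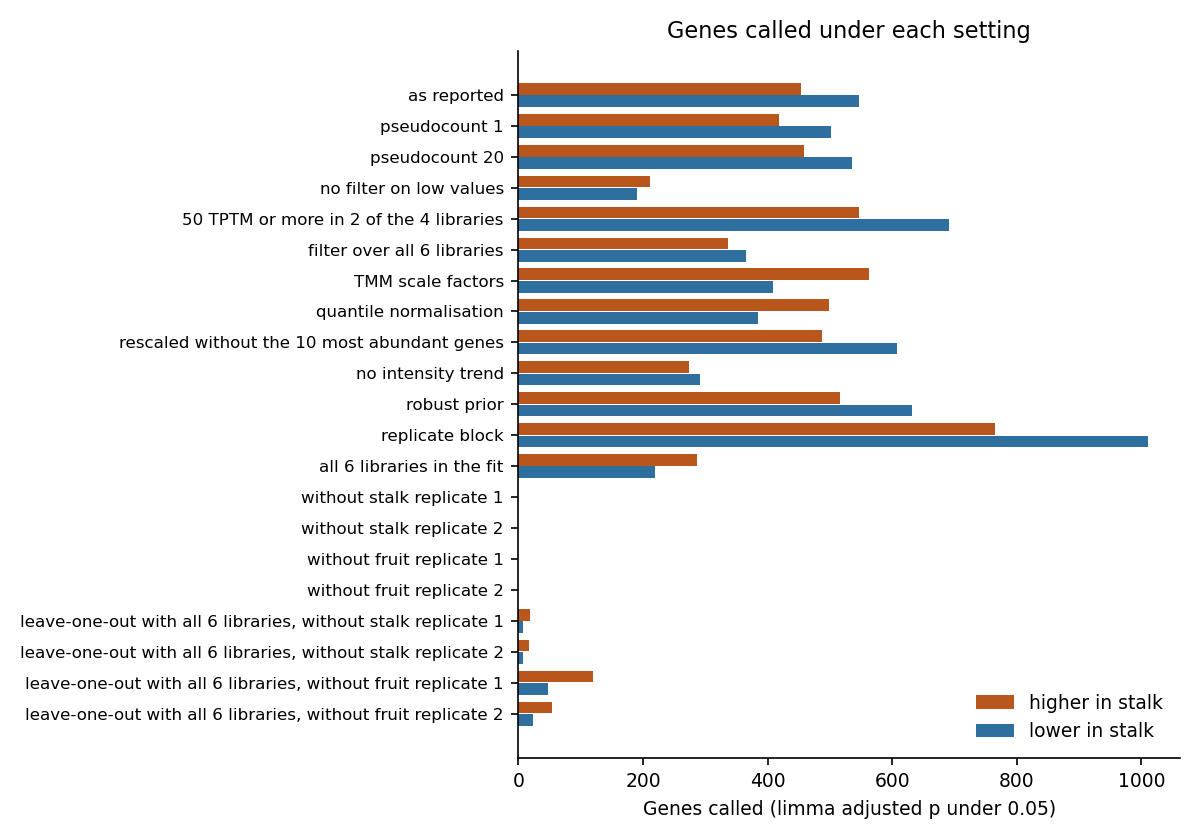
Number of genes called higher and lower in stalk (limma adjusted p under 0.05) as reported, at the top, and under each alternative. The counts run from 0, when 1 of the 4 libraries is left out of the fit of these organs, to 765 higher and 1011 lower with a term for the replicate number.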

How the data were processed

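Phloem RNA was extracted from laser-dissected sections, amplified, poly(A)-selected and sequenced on Illumina libraries, per the labels' protocols. Per the submitters' processing notes, TopHat and HTSeq were used; no version, build or annotation is stated in the sources used here. One table was deposited by the authors, with whole-number expression scores (TPTM) of 6 libraries. Each column sums to just under 10000000, so the scores are normalised and rounded, not read counts, and no count model was used. No length correction is recorded, so ranks and bands of genes are of scores, which may also depend on gene length.

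Genes reaching 10 TPTM in 2 or more of the 4 stalk and fruit libraries were tested as log2(TPTM + 5) with limma 3.58.1 (R 4.3.3; moderated variances with a trend on mean level, 2 residual and 7.62 prior degrees of freedom). Fold changes on this scale understate changes of low genes. P-values and SEs rest on moderated variances, which combine the spread between the 2 libraries per organ with that of all tested genes. The fit takes a common spread for both organs, although fruit replicates lay further apart. Calls are at a Benjamini-Hochberg adjusted p under 0.05. The pipeline was tested on simulated data, in which stalk and fruit had the same spread. Reads per score were estimated from the uneven use of whole numbers between 15 and 200 TPTM. Each score was taken as reads divided by a fixed number for its library and then rounded, which was not checked. An estimate was kept where its log likelihood exceeded that of any other depth by at least 3. TMM factors were computed on the scores, with 30% of ratios and 5% of levels trimmed at each end.

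Named genes are the 2 called genes per direction with the widest gap between the nearest libraries of the 2 organs. The comparison, lists and rules were chosen with earlier results of these data known. Lists defined by product descriptions and cell type markers could not be applied, as no identifier matched a name. Alternatives varied the pseudocount, filter, scaling, prior, libraries fitted and a replicate term.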

Additional observations from a re-analysis of the deposited data

How the results depend on the processing

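The count of 1000 genes called between stalk and fruit (453 higher and 547 lower in stalk) stayed within 1.5 times under other pseudocounts, a stricter filter, a filter over all 6 libraries, the 3 scalings and a robust prior. Without a filter 401 genes were called (211 higher and 190 lower), without the intensity trend 566 (274 and 292), and with all 6 libraries in the fit 507 (287 and 220); the cause was not tested. With 1 library left out the count ranged from 0 to 166 (0 to 119 higher and 0 to 47 lower), the nonzero counts from fits that kept pedicle, which were added after seeing the data. Such fits have fewer libraries and fewer degrees of freedom. No share of expression could be given where 0 genes were called. With a replicate block the count was 1776 (765 and 1011), but the numbers give no sign of pairing: across genes, replicate 2 minus replicate 1 in stalk correlated with the same difference in fruit at 0.0104. Genes called as reported and under an alternative had the same direction in every alternative run. The 4 named genes kept direction in all 80 cases and their call in 60. The other 20 were all fits with 1 library left out, in which limma adjusted p reached 0.45. At 10 TPTM the counting error was 19.0% to 21.4% in the 3 stalk and fruit libraries with an estimated depth, and what it does to calls among low scores was not tested.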

Other observations

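Of the fruit libraries, replicate 1 lay nearer to stalk. It was the nearer one in 8746 of 15050 tested genes (58.1%), in 282 of the 453 genes higher in stalk (62.3%) and in 340 of the 547 lower (62.2%). Over all tested genes the median log2 difference of stalk was -0.06 from fruit replicate 1 and -0.19 from fruit replicate 2. For the genes higher in stalk it was 1.46 and 1.67, and for those lower -1.36 and -1.54. The gene with the highest mean score over the 4 stalk and fruit libraries, which was not called, took 2.40% and 3.11% of the stalk libraries, against 3.48% and 3.75% of the fruit libraries, and 3.78% and 4.98% of the pedicle libraries. The filter left 670 genes untested between stalk and fruit, of which 433 had a pedicle mean of at least 10 TPTM.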
